A study of Mus musculus with 16 samples.

Results

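B16F0 is a mouse melanoma line, and the series holds 2 stocks of it, labelled B16F0 ECAC and B16F0 ATCC, where the second word is read here as the name of the supplier. They were chosen by these labels and make up 2 of the 16 arrays. Each stock was 1 sample of genomic DNA from cells grown in culture, labelled C57BI6, female and melanoma. Passage, culture history and how the stocks were split are not given in the labels. Each line's DNA carried the red dye Cy5 and was hybridised against a commercial mouse genomic DNA with the green dye Cy3, the same on all arrays. The other 2 melanoma arrays, B16F10 NCI and B16F10 ATCC, have the same strain, sex and tissue labels and served as the point of comparison. The remaining 12 arrays, of tumour lines from other tissues, served as background. Lines labelled Balb/C are among these 12, so that strain as well as tissue can differ from the B16 arrays. No agent or engineered allele is named for any of these samples. The comparison asks where the DNA of 2 stocks sold under one name differed, and which of them lay nearer to B16F10 at each place.

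B16 is a transplantable melanoma of C57BL/6 mice, and B16F10 was derived from B16F0 by repeated selection for growth in the lung after injection into the blood. Both are used in mouse studies of melanoma, metastasis and tumour immunity. Array comparative genomic hybridisation compares the DNA of a sample with that of a reference at each probe: a positive log2 ratio is a relative gain, and a negative one is a relative loss. The ratio is an average over all cells of a culture, so that a change in part of the cells and a smaller change in all of them cannot be told apart.

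Values below are log2 ratios of line over reference, centred for each array on its autosomal median, and positions are on the mouse build mm8. Differences are B16F0 ECAC minus B16F0 ATCC. With 1 array per stock there was no test and no p-value, and the precision is limited by this number of arrays. The SE given with a segment is taken over its probes: it reflects noise between positions, and says nothing of how much cultures of a stock vary. A segment is a stretch of neighbouring probes found by a change point search on the difference, and it counted as differing at 0.3 or more in size. A difference that took in 90% or more of a chromosome's probes is called whole, any other of 5 Mb or more partial, and a shorter one focal.

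On the 4 B16 arrays between 99.6% and 99.7% of probes were well above background in the line channel. The noise between neighbouring probes was 0.23 on the B16F0 ECAC array and 0.40 on the B16F0 ATCC array, against 0.22 to 0.41 over all 16. Both B16F0 arrays and B16F10 ATCC belong to 1 scan day, and B16F10 NCI to the other. As a yardstick for arrays that hardly differ, those labelled Hepa1-6 and PAN02 correlated at 0.992 over 2395 bins of 1 Mb, no bin differed by 0.3 or more, and no chromosome median by more than 0.025. These labels name different lines, and why the arrays were so alike was not tested. The pair does not show how far different lines usually agree. TRAMPC1 and TRAMPC2, which are sublines of 1 prostate tumour, differed in 1.13% of bins.

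The B16F0 stocks differed by 0.3 or more in 452 of the 2395 bins, or 18.9%. B16F0 ECAC was higher in 204 of them and lower in 248, which is 8.52% and 10.4% of all bins. The difference profile fell into 51 segments, of which 15, or 29.4%, differed. Together they covered 575.7 Mb and 23.5% of the autosomal probes: 7.13% of probes with B16F0 ECAC higher and 16.4% with it lower. Nearly all of this length lay in 10 segments of 5 Mb or more, which made up 572.2 Mb, with B16F0 ECAC higher in 4 and lower in 6. Their sizes ran from 0.30 to 0.62, which are ratios of 1.23-fold to 1.54-fold between the stocks. By chromosome, 2 autosomes differed whole (15 and 18) and 6 in part (1, 2, 4, 8, 12 and 14). In 2 others (9 and 19) only focal segments differed, and 9 held no differing segment.

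**Figure D1:**
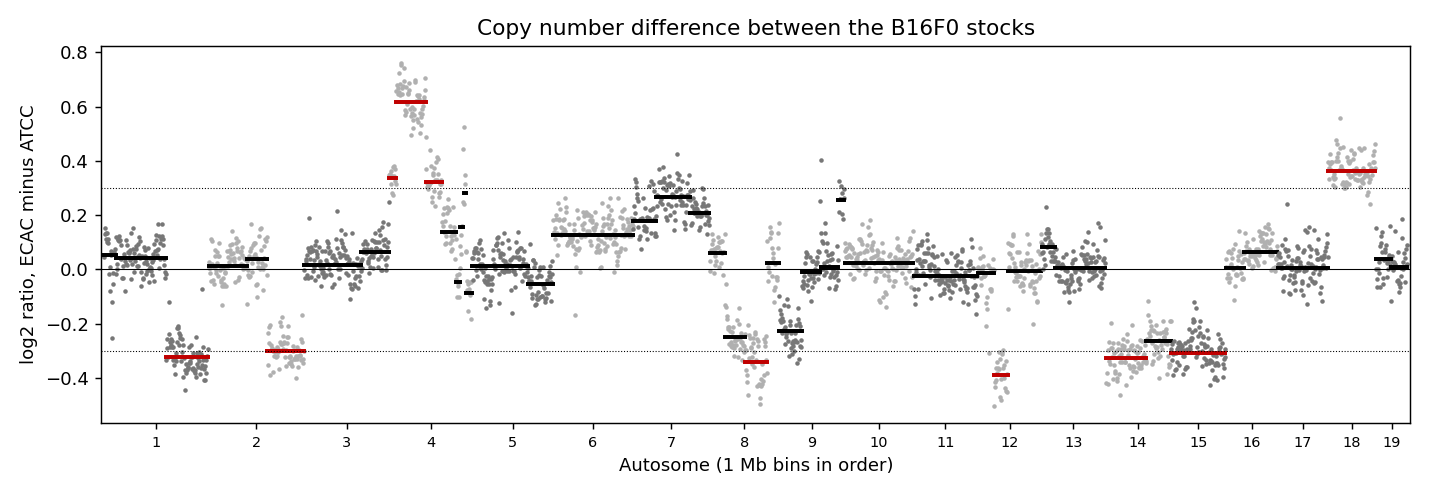
The difference between the B16F0 stocks in 1 Mb bins along the 19 autosomes (y axis, B16F0 ECAC minus B16F0 ATCC in log2; x axis, genome order), with the threshold of 0.3 on either side. Chromosomes 4 and 18 lie above 0 over long stretches, chromosomes 14 and 15 lie below 0 throughout, and chromosomes 1, 2, 8 and 12 step within the chromosome.

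Chromosome 18 was the largest whole-chromosome difference. Its median was -0.040 in B16F0 ECAC, -0.42 in B16F0 ATCC, -0.38 in B16F10 NCI and -0.40 in B16F10 ATCC. B16F0 ECAC was thus near its own autosomal level, and the other 3 arrays stood together below theirs. The difference was 0.38 by medians. As a single segment over chr18:3181133-90727455 (87.5 Mb, 7949 probes) it was 0.36 ± 0.0037 (SE over probes). B16F0 ECAC was higher in 88 of 88 bins, by 0.24 to 0.56. The 12 arrays of other tumours ranged from -0.38 to 0.030 over this segment. With each array centred on its mode the segment differed by 0.29, just under the threshold.

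Chromosome 15 differed the other way. Its median was -0.035 in B16F0 ECAC, 0.24 in B16F0 ATCC, 0.23 in B16F10 NCI and 0.21 in B16F10 ATCC. Again B16F0 ECAC stood alone, here without the relative gain in the median that the other 3 B16 arrays carried. The segment ran over chr15:3091692-103482674 (100.4 Mb, 9166 probes) at -0.31 ± 0.0035 (SE over probes), close to the threshold, and B16F0 ECAC was lower in 101 of 101 bins. The 12 other tumours ranged from -0.088 to 0.66 there.

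Within chromosome 15 all 4 B16 arrays had a step up at about 33.6 Mb that was on none of the other 12 arrays. Before it the means were -0.41 in B16F0 ECAC, -0.092 in B16F0 ATCC, -0.10 in B16F10 NCI and -0.052 in B16F10 ATCC. After it they were 0.066, 0.37, 0.34 and 0.28 in the same order. The relative gain of B16F0 ATCC and the B16F10 arrays thus lay after the step. The stocks differed by -0.32 ± 0.0072 before the step and by -0.30 ± 0.0041 after it (SE over 2286 and 6882 probes). The whole chromosome was therefore offset by about the same amount on either side of a boundary that the stocks share. With normexp background correction the chromosome 15 segment differed by -0.24, under the threshold.

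**Figure D2:**
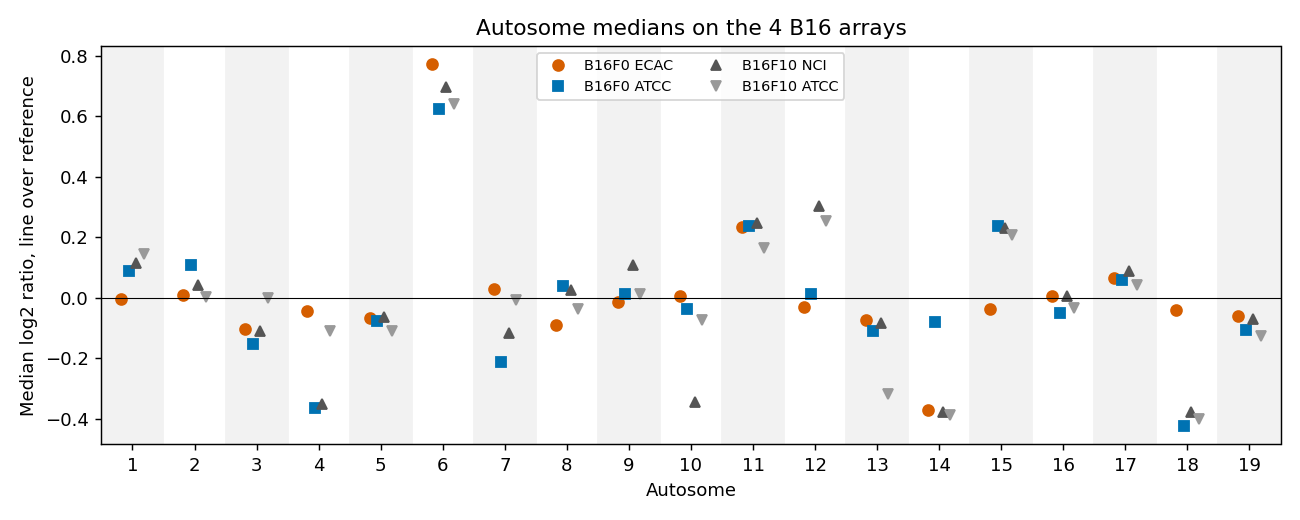
Median log2 ratio of each autosome (y axis) on the 4 B16 arrays (points), in chromosome order (x axis). On chromosomes 15 and 18 B16F0 ECAC stands apart from the other 3 arrays, on chromosome 14 B16F0 ATCC does, and on chromosome 4 the arrays fall into B16F0 ATCC with B16F10 NCI (-0.36 and -0.35) and B16F0 ECAC with B16F10 ATCC (-0.044 and -0.11).

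Chromosome 4 held the largest partial difference. Its proximal part was cut into 3 neighbouring segments, together 97.4 Mb, in each of which B16F0 ECAC was higher. In the middle one, chr4:15884755-70403717 (54.5 Mb, 4070 probes), the means were 0.21 in B16F0 ECAC, -0.40 in B16F0 ATCC, -0.39 in B16F10 NCI and -0.023 in B16F10 ATCC. These are 3 levels: a relative gain in B16F0 ECAC, a loss in B16F0 ATCC and B16F10 NCI, and neither in B16F10 ATCC. A low level was not particular to those 2 arrays: the 12 other tumours ranged from -0.41 to 0.036 there, with a median of -0.24. The stocks differed by 0.62 ± 0.0051 (SE over probes), and all 56 bins lay between 0.49 and 0.76.

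The flanking segments of chromosome 4 differed less. Over chr4:3012291-15871825 (12.9 Mb, 988 probes) the means were -0.076 in B16F0 ECAC, -0.41 in B16F0 ATCC, -0.38 in B16F10 NCI and -0.023 in B16F10 ATCC. The difference there was 0.34 ± 0.010. Over chr4:70424714-100477237 (30.1 Mb, 2371 probes) they were -0.16, -0.49, -0.44 and -0.062, a difference of 0.32 ± 0.0066. In both flanks B16F0 ATCC paired with B16F10 NCI, and B16F0 ECAC lay nearer to B16F10 ATCC. The median of the 12 other tumours was -0.23 in the first flank and -0.30 in the second. The boundaries at 15.9 and 70.4 Mb were steps of 0.25 and -0.22 on the B16F0 ECAC array and no other B16 array had one of the same sign within 0.1 Mb. With mode centring the flanks differed by 0.26 and 0.25, under the threshold, and the middle segment by 0.55.

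On chromosome 14 it was B16F0 ATCC that stood apart. The median was -0.37 in B16F0 ECAC, -0.079 in B16F0 ATCC, -0.38 in B16F10 NCI and -0.39 in B16F10 ATCC. Thus 3 arrays carried a relative loss that was much smaller in B16F0 ATCC. B16F0 ECAC was lower in 118 of 118 bins. The differing segment, chr14:3892581-78740500 (74.8 Mb, 7211 probes), stood at -0.34 in B16F0 ECAC, -0.0093 in B16F0 ATCC, -0.33 in B16F10 NCI and -0.37 in B16F10 ATCC. It differed by -0.33 ± 0.0039 (SE over probes). A low level was not particular to B16: the 12 other tumours ranged from -0.30 to 0.15 over this segment, with a median of -0.19. The rest of the chromosome, chr14:78748267-123948262 (45.2 Mb, 3358 probes), was lower on all 4 arrays, at -0.39, -0.12, -0.41 and -0.42. There the stocks differed by -0.26 ± 0.0055, just under the threshold, which is why chromosome 14 counts as a partial and not a whole difference. Over these last 45.2 Mb the 12 other tumours ranged from -0.59 to -0.057, with a median of -0.30. With normexp the chromosome 14 median difference turned to 0.024, from medians of -0.046 in B16F0 ECAC and -0.069 in B16F0 ATCC.

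The distal part of chromosome 1, chr1:120165959-197062816 (76.9 Mb, 7120 probes), was -0.22 in B16F0 ECAC, 0.10 in B16F0 ATCC, 0.13 in B16F10 NCI and 0.093 in B16F10 ATCC. B16F0 ECAC was the low array. The difference was -0.32 ± 0.0040 (SE over probes), with B16F0 ECAC lower in 77 of 77 bins, by 0.074 to 0.44 in size. On chromosome 12 the segment chr12:33270505-58247802 (25.0 Mb, 2053 probes) was -0.45 in B16F0 ECAC, -0.059 in B16F0 ATCC, -0.012 in B16F10 NCI and -0.022 in B16F10 ATCC. By level, B16F0 ECAC was the low array. The difference of -0.39 ± 0.0072 was the largest of the segments in which it was lower, apart from the focal ones. Against its flanks, however, the chromosome 12 segment was low in the B16F10 arrays too. Before it the means were 0.043 in B16F0 ECAC, 0.056 in B16F0 ATCC, 0.39 in B16F10 NCI and 0.31 in B16F10 ATCC, and after it 0.083, 0.090, 0.42 and 0.34. B16F0 ECAC and both B16F10 arrays thus dropped within the segment and rose after it, from different levels, while B16F0 ATCC changed least. The B16F0 ECAC array had steps of -0.47 and 0.25 at the ends of the segment, and no other array had one of the same sign within 0.1 Mb of them. With normexp these segments differed by -0.10 on chromosome 1 and 0.039 on chromosome 12, both under the threshold and the latter of the opposite sign.

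In distal chromosome 2, chr2:111727270-181918277 (70.2 Mb, 6717 probes), the means were 0.046 in B16F0 ECAC, 0.35 in B16F0 ATCC, 0.099 in B16F10 NCI and 0.0029 in B16F10 ATCC. The gain was thus largest in B16F0 ATCC, with B16F10 NCI next and far lower. The difference of -0.30 ± 0.0040 (SE over probes) lay at the threshold, and 33 of 69 bins passed it. It came to -0.297 once the 4 arrays were scaled to equal amplitude. On chromosome 8 the segment chr8:70769033-110711086 (39.9 Mb, 3874 probes) was 0.020 in B16F0 ECAC, 0.36 in B16F0 ATCC, 0.18 in B16F10 NCI and 0.058 in B16F10 ATCC. B16F0 ATCC was again the highest, with B16F10 NCI between the stocks. The difference was -0.34 ± 0.0056. The B16F0 ATCC array had a step of 0.46 near the start of the chromosome 2 segment and one of -0.37 at the end of the chromosome 8 segment. Within 0.1 Mb of the first, B16F10 NCI also had a step up, and no other B16 array had one within that distance of the second.

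**Figure D3:**
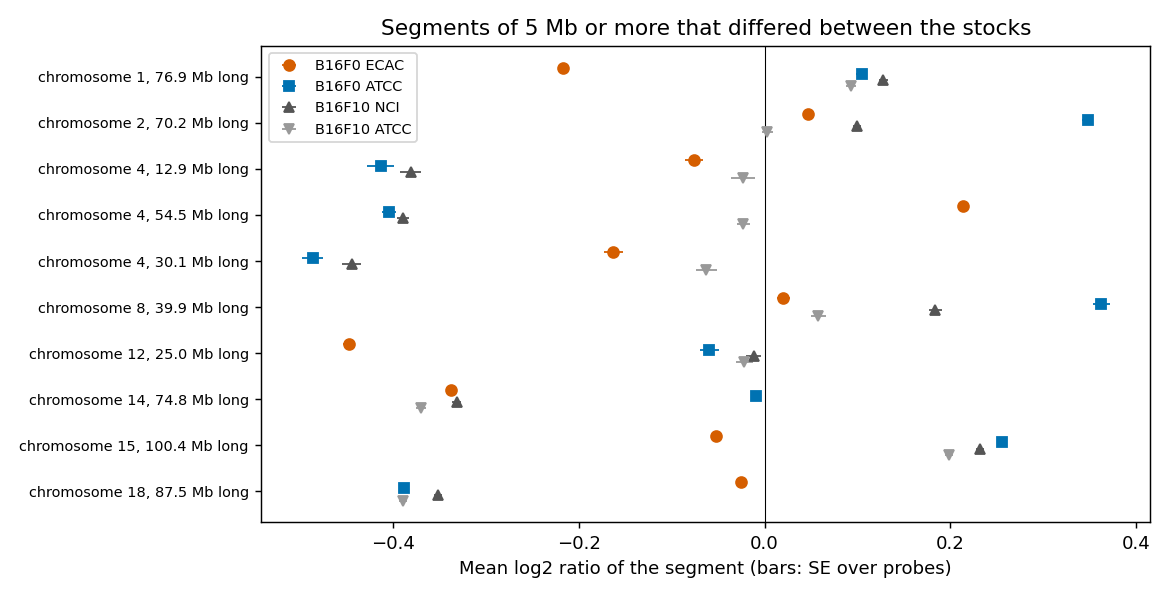
Mean log2 ratio (x axis) of the 4 B16 arrays in each of the 10 differing segments of 5 Mb or more (y axis); error bars are the SE over probes. B16F0 ECAC is the array apart from the others on chromosomes 1, 12, 15 and 18, B16F0 ATCC on chromosomes 2 and 14, and on chromosome 4 the B16F10 arrays divide between the stocks.

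Several long segments lay just outside the threshold. On chromosome 7 the medians were 0.031 in B16F0 ECAC, -0.21 in B16F0 ATCC, -0.12 in B16F10 NCI and -0.0070 in B16F10 ATCC, and B16F0 ECAC was higher in 139 of 139 bins. The chromosome differed by 0.24, more than any other without a differing segment, and its longer segment, chr7:47892465-110425101 (62.5 Mb), by 0.27 ± 0.0043. On chromosome 8 the stretch before the differing segment, chr8:32243503-70762731 (38.5 Mb, 2730 probes), was -0.29 in B16F0 ECAC, -0.047 in B16F0 ATCC, 0.0092 in B16F10 NCI and 0.0033 in B16F10 ATCC. Its difference of -0.25 ± 0.0060 has the same sign as that of the next segment. However, B16F0 ECAC was the array apart in the first stretch and B16F0 ATCC the highest in the second.

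Chromosome 9 had a median difference of -0.029 that hid opposite ends. Its proximal 42.0 Mb, chr9:3088282-45096631 (4068 probes), were -0.24 in B16F0 ECAC, -0.013 in B16F0 ATCC, 0.075 in B16F10 NCI and 0.0028 in B16F10 ATCC, a difference of -0.23 ± 0.0052. Its last 11.3 Mb, chr9:112626924-123957580 (1184 probes), were 0.35, 0.093, 0.18 and 0.011, a difference of 0.25 ± 0.0097. B16F0 ECAC was the lowest array at one end of the chromosome and the highest at the other.

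On the 9 autosomes without a differing segment (3, 5, 6, 7, 10, 11, 13, 16 and 17) the median difference ran from -0.0046 to 0.24, and from -0.0046 to 0.057 without chromosomes 6 and 7. Some of these chromosomes were changed in both stocks. Chromosome 6, which carries the melanocyte regulator gene Mitf, was gained in both, with a median of 0.77 in B16F0 ECAC against 0.62 in B16F0 ATCC (0.70 in B16F10 NCI and 0.64 in B16F10 ATCC). Its difference of 0.15 had the same sign in 144 of 147 bins, but no bin reached 0.3. With normexp it was -0.50, from medians of 0.16 in B16F0 ECAC and 0.66 in B16F0 ATCC. Normexp left an SD over bins of 0.057 on the B16F0 ECAC array and 0.30 on the B16F0 ATCC array. Both stocks thus stayed gained under it, and the change of sign came with a compressed B16F0 ECAC profile. Chromosome 11 was gained as well, with a median of 0.23 in B16F0 ECAC against 0.24 in B16F0 ATCC. The B16F10 arrays, by contrast, stood apart from both stocks on chromosome 12, whose medians were -0.030 in B16F0 ECAC, 0.014 in B16F0 ATCC, 0.31 in B16F10 NCI and 0.25 in B16F10 ATCC. Chromosome 10 was low in B16F10 NCI alone, at -0.34, against 0.0065 in B16F0 ECAC, -0.037 in B16F0 ATCC and -0.074 in B16F10 ATCC.

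**Figure D4:**
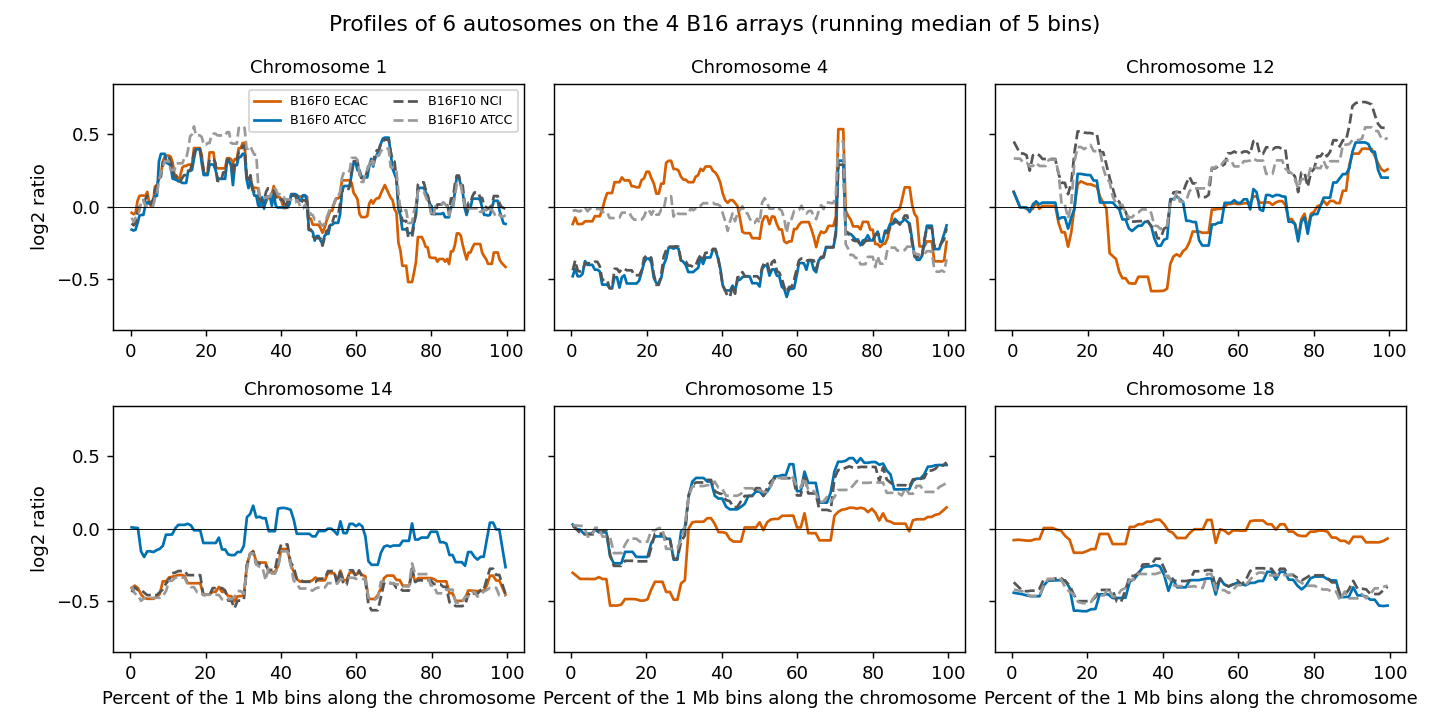
Log2 ratio (y axis, running median of 5 bins of 1 Mb) along chromosomes 1, 4, 12, 14, 15 and 18 (x axis, percent of the 1 Mb bins along the chromosome), with 1 line per B16 array. On chromosome 15 all 4 lines step up together and B16F0 ECAC stays below the rest on both sides, and on chromosome 4 B16F0 ECAC lies above B16F0 ATCC over the proximal part.

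The focal differences were 5 segments, 2 with B16F0 ECAC higher and 3 with it lower. The one with the most probes, 212, was on chromosome 4, chr4:139336108-140909181, at 1.33 in B16F0 ECAC, 0.78 in B16F0 ATCC, 0.73 in B16F10 NCI and 1.03 in B16F10 ATCC. All 4 B16 arrays were thus gained there, while the 12 other arrays ranged from -0.16 to 0.25. The stocks shared both boundaries, which were steps on all 4 B16 arrays and on none of the others, and differed in height by 0.54 ± 0.023 (SE over probes). With normexp, which left an SD over bins of 0.057 in B16F0 ECAC and 0.30 in B16F0 ATCC, the difference in level was -0.45. Just beyond it, chr4:140920256-144435827 (308 probes) was -0.021 in B16F0 ECAC, -0.30 in B16F0 ATCC, -0.30 in B16F10 NCI and -0.32 in B16F10 ATCC, a difference of 0.28 ± 0.020.

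The other focal segment higher in B16F0 ECAC, chr9:79485297-81199396 (126 probes), was 0.37 in B16F0 ECAC, -0.0074 in B16F0 ATCC, 0.16 in B16F10 NCI and 0.11 in B16F10 ATCC. EL4, a lymphoma line, stood at 0.36 there, so that a gain of this size was not particular to B16F0 ECAC. The difference between the stocks was 0.38 ± 0.028 (SE over probes).

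A deletion on chromosome 19 was found in B16F0 ECAC alone. Over chr19:31594127-31781561 (26 probes) the means were -0.74 in B16F0 ECAC, 0.20 in B16F0 ATCC, 0.20 in B16F10 NCI and 0.24 in B16F10 ATCC, and -0.45 to 0.65 in the other 12 arrays. B16F0 ECAC was the lowest of the 16. The difference was -0.94 ± 0.084 (SE over probes), and B16F0 ECAC was the lower stock at each of the probes. The lowest ratios lay near one end: the 5 probes from 31602516 to 31630750 ran from -2.16 to -1.74 in B16F0 ECAC and from -0.76 to -0.23 in B16F0 ATCC.

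The last 2 focal segments had only 5 probes each, the smallest number allowed. They divided the 4 B16 arrays as the flanking segments of proximal chromosome 4 did. At chr1:25767614-25776400 the means were -1.74 in B16F0 ECAC, 0.027 in B16F0 ATCC, 0.060 in B16F10 NCI and -1.91 in B16F10 ATCC. Low values there were not limited to melanoma lines: P815, a mastocytoma, stood at -1.68, EL4 at -1.57 and 4T1, a breast line, at -1.08. At chr2:74500598-74508066 the means were -1.81 in B16F0 ECAC, -0.13 in B16F0 ATCC, -0.094 in B16F10 NCI and -2.88 in B16F10 ATCC, with P815 at -2.99 and 4T1 at -0.95. In both windows B16F0 ECAC and B16F10 ATCC were low, and B16F0 ATCC and B16F10 NCI were near 0. Every probe of both windows was well above background in the line channel on all 16 arrays. The stocks differed by -1.77 ± 0.47 on chromosome 1 and by -1.68 ± 0.21 on chromosome 2 (SE over probes). With normexp the focal differences were -0.13 on chromosome 1, 0.050 on chromosome 2, 0.11 on chromosome 9 and -0.27 on chromosome 19, each under the threshold.

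**Figure D5:**
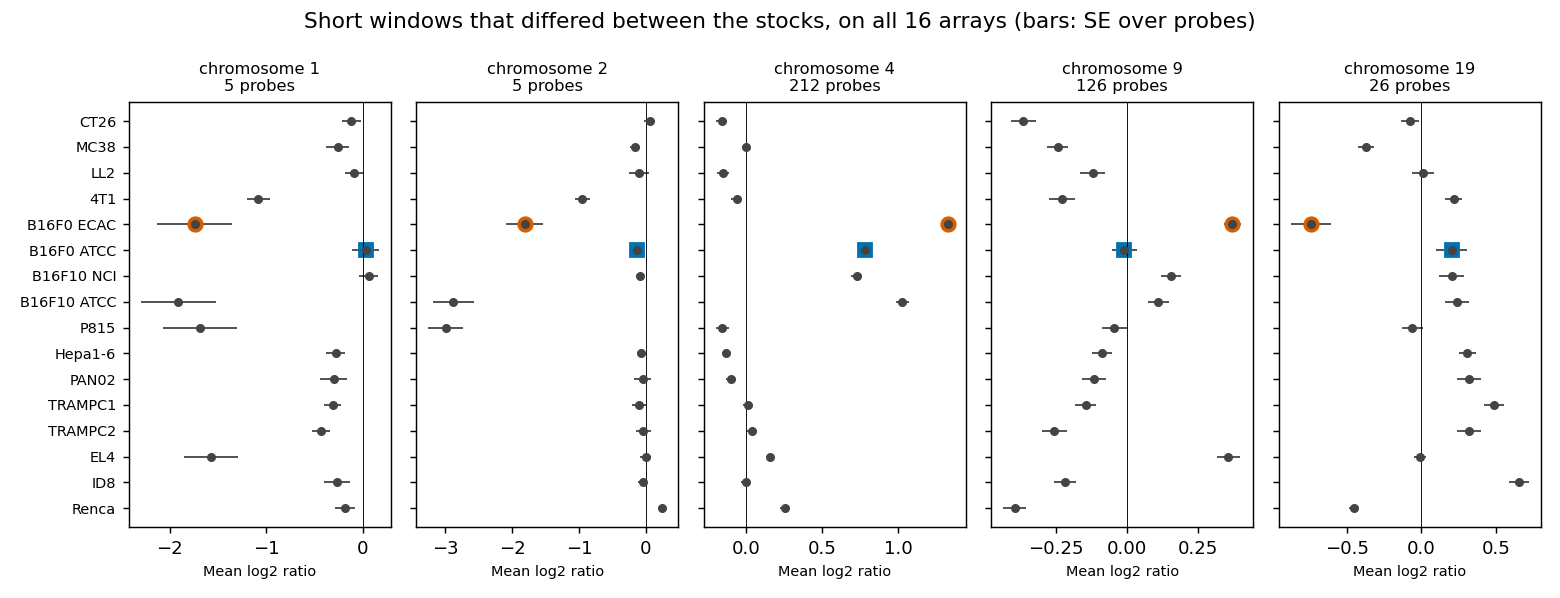
Mean log2 ratio (x axis) in the 5 focal windows on each of the 16 arrays (y axis; points with bars for the SE over probes, the 2 B16F0 stocks in colour). The chromosome 4 window is high on the 4 B16 arrays only, the chromosome 19 window is lowest in B16F0 ECAC, and the chromosome 1 and 2 windows are low in B16F0 ECAC, B16F10 ATCC and lines of other tumours.

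Nearness to B16F10 was called where a stock lay nearer to both B16F10 arrays by at least 0.1. By autosome median, B16F0 ECAC was the nearer stock on 1 chromosome (14) and B16F0 ATCC on 2 (15 and 18), with no call on the other 16. Of the 15 differing segments, B16F0 ECAC was nearer in 2 (145.0 Mb, 25.2% of the differing length), on chromosomes 2 and 14. B16F0 ATCC was nearer in 5 (290.0 Mb, 50.4%), on chromosomes 1, 12, 15, 18 and 19. In the other 8 (140.7 Mb, 24.4%) neither was nearer to both by 0.1, and most of that length was the 97.4 Mb of chromosome 4. Short of that margin, B16F0 ECAC was nearer to both in the segment of chromosome 8. B16F0 ATCC was so in the focal windows of chromosomes 4 and 9. Of the 452 differing bins, B16F0 ATCC was nearer in 201 (44.5%), B16F0 ECAC in 108 (23.9%) and neither in 143 (31.6%). B16F0 ATCC was nearer in 45 of 50 such bins on chromosome 1, 24 of 25 on chromosome 12 and 83 of 83 on chromosome 18. On chromosome 15 it was nearer in 31 of 50 and neither was in 19. The chromosome 12 calls compare levels and do not take the flanks into account. B16F0 ECAC was nearer in 33 of 33 on chromosome 2 and 59 of 59 on chromosome 14. Chromosome 8 was split, with B16F0 ECAC nearer in 16, B16F0 ATCC in 8 and neither in 3.

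These calls depended on which B16F10 array was used. Without B16F10 NCI, B16F0 ECAC was nearer on 3 autosomes and over 49.1% of the differing length, against 3 autosomes and 50.7% for B16F0 ATCC. Without B16F10 ATCC, the figures were 1 autosome and 25.2% for B16F0 ECAC, and 4 autosomes and 67.6% for B16F0 ATCC. In pairs of arrays, B16F0 ATCC and B16F10 NCI correlated at 0.896 across bins and differed in 9.85% of them. B16F0 ATCC and B16F10 ATCC, which carry the same supplier label, correlated at 0.767 and differed in 16.8%. B16F0 ECAC correlated at 0.781 with B16F10 NCI and 0.795 with B16F10 ATCC, and at 0.756 with the other B16F0 stock. The B16F10 arrays correlated at 0.858 with each other and differed in 10.3% of bins. B16F0 ECAC differed from B16F10 NCI in 20.6% of bins and from B16F10 ATCC in 15.5%. The stocks of B16F0 thus differed in a larger share of bins than those of B16F10. Their correlation was the lowest of the 6 pairs of B16 arrays, but by share of bins B16F0 ECAC and B16F10 NCI differed more. Bins are not independent replicates, and these values describe single arrays.

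The boundaries of copy number segments were then compared, with each array segmented by itself and a boundary counted as shared when another array had a step of the same sign within 0.1 Mb. Steps of at least 0.2 numbered 209 in B16F0 ECAC and 115 in B16F0 ATCC. The lower noise of the B16F0 ECAC array moves with its higher number, so the counts were not compared between stocks. Of those in B16F0 ECAC, 124 (59.3%) were also on a B16F10 array and 72 were on the B16F0 ATCC array. Of those in B16F0 ATCC, 79 (68.7%) were on a B16F10 array and 70 on the B16F0 ECAC array. Many of these also occur in other tumours: 116 of the boundaries in B16F0 ECAC and 62 of those in B16F0 ATCC were on none of the other 12 arrays.

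With at least 100 probes on either side, 12 boundaries on 8 chromosomes were on all 4 B16 arrays and on none of the other 12. They lay at 18.8, 20.1 and 79.2 Mb of chromosome 5, at 48.9, 69.2 and 98.9 Mb of chromosome 11, and singly on chromosomes 4, 6, 8, 15, 17 and 19. On chromosome 5, for example, the steps were -0.42 and 0.59 in B16F0 ECAC and -0.54 and 0.69 in B16F0 ATCC at 18.8 and 20.1 Mb. Their sign was the same in both stocks at all 12, as the rule for sharing requires, and their size differed by at most 0.28. Boundaries with such flanks that were on 1 stock and on no other of the 16 arrays numbered 38 of 96 in B16F0 ECAC and 21 of 75 in B16F0 ATCC. Such counts depend on the tolerance: with flanks of any size, boundaries on 1 stock and no other array numbered 59 and 23 at 0.1 Mb, and 33 and 8 at 0.5 Mb.

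Probes carry no gene names in these files, so genes were placed by chromosome only, from a gene table on another build, and no value below is that of a gene. The 2 whole-chromosome differences carry 10 of 146 genes in 7 lists (Kit is in 2 of the lists). These chromosomes hold 776 (chromosome 15) and 511 (chromosome 18) of 20665 protein-coding genes. Chromosome 15, lower in B16F0 ECAC, carries Sox10, a transcription factor of the neural crest and melanocytes, Slc45a2, a melanosomal transporter needed for pigment, the oncogene Myc, and Xrcc6, which encodes the DNA end-binding protein Ku70. Chromosome 18, higher in B16F0 ECAC, carries the tumour suppressors Apc, Smad2, Smad4 and Dcc, with Cd74, the invariant chain of MHC class II, and Ptpn2, a phosphatase that dampens interferon signalling. By list, this was 4 of 28 tumour suppressor genes and 2 of 21 melanocyte lineage genes. It was 1 each of 26 oncogenes, 20 antigen presentation, 19 interferon signalling and 20 DNA repair genes, and 0 of 13 checkpoint ligand genes. A further 42 of the 146 lie on chromosomes that differed in part, and whether they fall inside a differing segment was not analysed here. Of the 20665 protein-coding genes, those chromosomes hold 1204 (chromosome 1), 1782 (chromosome 2), 1328 (chromosome 4), 1043 (chromosome 8), 679 (chromosome 12) and 851 (chromosome 14). The 42 are therefore not read as a result about the lists.

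On the X chromosome the medians were -1.14 in B16F0 ECAC, -1.28 in B16F0 ATCC, -1.17 in B16F10 NCI and -1.17 in B16F10 ATCC. B16F0 ATCC was the lowest of the 4. Over 152 bins B16F0 ECAC was higher in 119, but the median bin difference was 0.049 and no bin reached 0.3.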

How the data were processed

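DNA from 1 culture of each of 16 mouse tumour lines was measured on 2-colour arrays, 1 array per line. Spot intensity values were made by the authors with Agilent Feature Extraction (submitters' processing notes), version 10.7.3.1 and protocol CGH_107_Sep09 per the file headers. Background subtraction and linear dye scaling, without a lowess curve, were applied to the processed intensity per the file headers, which also place probes on mm8. On every array, 99.9% or more of the deposited log10 ratios lay within 0.001 (in log2) of the ratio of the processed signals. The deposited log2 value table matched it within 5.06e-05, so scale and direction were settled. Its medians ran from -0.044 to 0.053.

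Log2 of processed red over green was computed, without control and outlier-flagged spots, repeat spots averaged, and each array centred on its autosomal median. Of 235402 probes, 220569 autosomal ones had a value on both stocks (median spacing 7827 bp). The difference was divided by an exact change point search (squared error; penalty 6 times the noise variance, scaled by the log of the probe number; at least 5 probes; values limited to 3 noise SDs of a running median of 5). Bins of 1 Mb held at least 5 probes. The script was tested on simulated profiles. Normexp (limma 3.58.1, offset 50) used median spot signals, since the files used here hold no mean signals, although the plan named means. Other tools were Python 3.11.15, numpy 2.4.6, pandas 2.3.3 and R 4.3.3.

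All whole and partial differences and the 5 highest and 5 lowest focal ones were to be named (there were 5 in all), and genes only by chromosome on GRCm38.p6 where a whole chromosome differs; Mitf is named besides. Members and lists were chosen with earlier results of these data known.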

Additional observations from a re-analysis of the deposited data

How the results depend on the processing

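No paired analysis was possible because the labels carry no replicate numbers and each stock has 1 array. The share of probes in differing segments stayed within 1.5 times of 23.5% with the deposited value table, outlier spots kept, mode centring, dim probes left out, equal amplitude, the penalty doubled, at least 20 probes per segment and a threshold of 0.2 (33.1%). At a threshold of 0.5 it was 1.96% in 5 segments, 1.94% higher and 0.016% lower in B16F0 ECAC, with B16F0 ATCC nearer to B16F10 over 0.33% of the differing length and B16F0 ECAC over 0%. The share higher in B16F0 ECAC was 12.1% at 0.2, 2.00% (21.0% lower) with mode centring and 13.2% (15.3% lower) with normexp. Normexp shrank the SD over bins from 0.30 to 0.057 in B16F0 ECAC but from 0.31 to 0.30 in B16F0 ATCC. Under normexp there were 35 differing segments, the chromosome 14 median difference turned to 0.024, B16F0 ATCC was nearer over 3.74% and B16F0 ECAC over 35.0% of the length, and neither was nearer on any autosome (0 and 0). With equal amplitude B16F0 ECAC was nearer over 14.8%, since the chromosome 2 segment fell to -0.297. Leaving out 1 B16F10 array gave 50.7% to 67.6% of the length and 3 to 4 autosomes for B16F0 ATCC, and 25.2% to 49.1% and 1 to 3 for B16F0 ECAC. With a tolerance of 0.5 Mb, boundaries shared with a B16F10 array were 145 and 92. Noise along the genome limits segments of few probes; differences between cultures of a stock were not measured.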
